A study of Populus ussuriensis with 12 samples.

Results

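The antioxidant enzymes and redoxins of poplar leaves were the genes whose UniProt description in the deposited annotation named a catalase, superoxide dismutase, ascorbate peroxidase, monodehydroascorbate or dehydroascorbate reductase, glutathione reductase, glutathione peroxidase, peroxiredoxin, thioredoxin or glutaredoxin. This text search returned 155 of 35747 genes, and they map to 93 UniProt entries. By class there were 3 catalases, 13 superoxide dismutase entries, 10 ascorbate peroxidases, 3 monodehydroascorbate reductases, 3 glutathione reductases, 8 glutathione peroxidases, 11 peroxiredoxins, 37 glutaredoxins, 6 thioredoxin reductases and 61 thioredoxins. The search returned 0 dehydroascorbate reductases. The descriptions were wider than the enzyme names in places, since 2 of the 13 superoxide dismutase entries are copper chaperones and part of the thioredoxin class is thioredoxin-like, and 130 genes remained when such descriptions were left out. The description placed 55 of the 155 genes in the chloroplast, 9 in mitochondria, 4 in peroxisomes and 6 in the cytosol, and it stated no location for 81. Genes without a stated location can still encode chloroplast proteins, such as the variable chain of ferredoxin-thioredoxin reductase.

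Leaves make superoxide and hydrogen peroxide in chloroplasts, peroxisomes and mitochondria and more of them when light is captured faster than carbon is fixed, as can happen when stomata close under drought. Superoxide dismutases turn superoxide into hydrogen peroxide, catalases and ascorbate peroxidases remove the peroxide, and monodehydroascorbate and glutathione reductases restore the ascorbate and glutathione that are spent. Peroxiredoxins and plant glutathione peroxidases remove peroxides through reactive cysteines, while thioredoxins and glutaredoxins pass electrons to disulfides of other proteins. In chloroplasts, light-reduced ferredoxin feeds this chain through ferredoxin-thioredoxin reductase.

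RNA sequencing had been done on Populus ussuriensis leaves, the 7th and 8th from the shoot tip, of wild-type (WT) plants and of plants overexpressing the microRNA Pu-miR172d (OE). Plants moved from in vitro culture at 4 weeks had grown in soil for 70 days at 25 °C with 16 h of light. They had either been watered throughout or left without water for 4 days, which gave 4 groups of 3 libraries: watered WT, drought WT, watered OE and drought OE. Neither the transgene's promoter nor the number of OE lines is stated in the labels, the level of Pu-miR172d was not analysed here, and no source says whether the libraries of a group came from separate plants, so the p-values measure the spread between these libraries.

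The libraries held 9682111 to 12131416 fragments, and values are FPKM, fragments per kilobase of gene, scaled to the library's total fragments. The leaf label was matched by the 29 mesophyll markers fixed for it, Rubisco small chains and chlorophyll a-b binding proteins, whose summed FPKM was 38400 to 47000 in watered WT and 26300 to 38100 in watered OE. It was 2270 to 4040 in drought WT and 198 to 1140 in drought OE. Of the drought libraries, 2 stood apart. Drought OE library 5 held the 198, and it had the lowest value of its group for 43 of the 47 tested chloroplastic members and 58 of the 85 others. Drought WT library 6 was lowest of its group for 58 of the 85 others and 12 of the 47, and its fragment counts lay farthest from those of its group, with a chi-square per gene of 66.4 and 66.1 against 28.1 and 41.7 for drought OE library 5. The share of all FPKM taken by the 100 most abundant genes was 24.9% to 29.3% with water and 16.7% to 22.5% under drought. The median log2 change of all tested genes was 0.245 for drought against watered in WT, -0.126 in OE, and -0.241 for OE against WT under drought. When libraries were scaled to each other by the median of ratios, those medians were 0.01, -0.026 and -0.031, so a count on the deposited scale carries that shift.

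Of the 155 genes, 132 reached 1 FPKM in at least 3 of the 12 libraries and were tested. The 23 untested members, 8 of them chloroplastic, stayed at or below 2.164 FPKM in every library. No tested member passed through a single group: 124 of the 132 reached 1 FPKM in all 4 groups, and 112 in every library. A gene was called where limma's Benjamini-Hochberg adjusted p over all 25373 tested genes was under 0.05. Fold changes are on the log2(FPKM + 1) scale, which understates the change of low genes. In these bulk leaf samples, fewer cells of a type and less RNA per cell cannot be told apart.

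Under drought, WT leaves had lower transcript levels for many chloroplastic members. In WT, 36 of 132 members rose and 37 fell, which is 27.3% and 28.0%, against 33.9% and 21.6% of all genes tested, and 55.5% were called in either direction. Of the 47 tested chloroplastic members 6 rose and 22 fell, or 12.8% and 46.8%, with a median log2 change of -0.46. Of the 85 others 30 rose and 15 fell, or 35.3% and 17.6%, close to the shares of all genes, with a median of 0.30. With the scaled libraries the chloroplastic counts were 3 up and 30 down and the others 18 up and 20 down, with medians of -0.73 and 0.01, so the balance of rises among the others did not hold on that scale while the chloroplastic median was lower still. Of all 25373 genes tested, 5689 rose and 6882 fell with scaled libraries. On the deposited scale the chloroplastic rises numbered 3 without watered WT library 2 or without drought WT library 4.

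In OE, 19 members rose and 74 fell, which is 14.4% and 56.1%, against 27.7% and 34.9% of all genes tested and 62.7% called in either direction. The chloroplastic members gave 3 rises and 34 falls with a median of -1.07, and the others 16 rises and 40 falls with a median of -0.48. Scaling left these splits close to where they were, at 3 and 34 for chloroplastic members and 19 and 37 for the others. Of all 25373 genes tested, 7998 rose and 8433 fell on that scale. The chloroplastic rises numbered 1 without watered OE library 1 or without drought OE library 5.

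Members placed in other compartments gave small counts. The counts by compartment and class stand against the shares of all genes tested. Of these, 33.9% rose and 21.6% fell in WT, and 27.7% rose and 34.9% fell in OE. All 4 peroxisomal genes fell in OE and 3 of them in WT. Of the 8 tested mitochondrial genes 5 rose and 0 fell in WT (5 of the 8 had an unadjusted p under 0.05, and voom on recovered fragments gave 5 and 0), whereas 2 rose and 3 fell in OE. Of the 5 tested cytosolic genes 3 rose in WT, and 1 rose and 2 fell in OE. The mitochondrial rises in WT numbered 3 with scaled libraries.

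**Figure D1:**
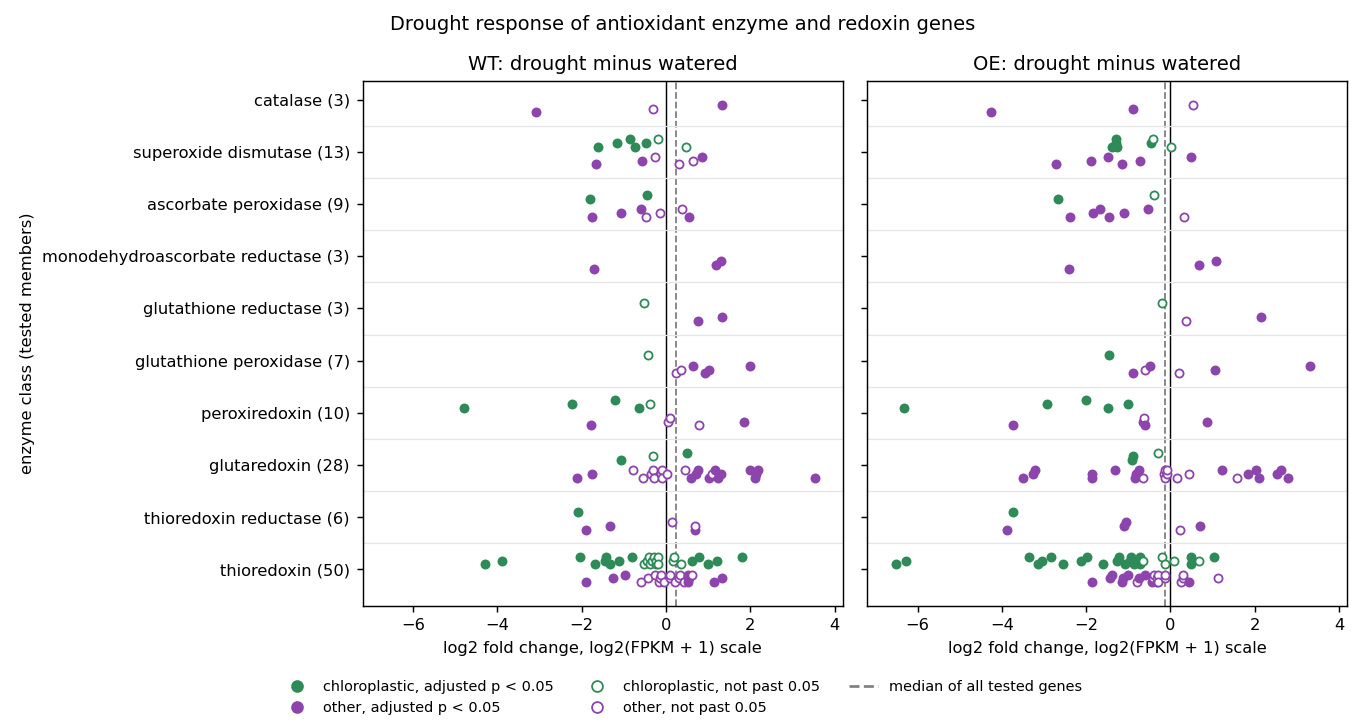
Log2 fold change of drought against watered leaves for each of the 132 tested members, by enzyme class, in WT (left) and OE (right), on the log2(FPKM + 1) scale. Filled points are called (adjusted p under 0.05), open points are not, green is chloroplastic and purple is any other or no stated location. The dashed line is the median of all tested genes (0.245 in WT, -0.126 in OE on the deposited scale; 0.01 and -0.026 with scaled libraries). The points farthest left are chloroplastic thioredoxins and a peroxiredoxin, at -4.79 in WT and -6.51 in OE at the lowest.

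Summed over genes, the chloroplastic members made up 4469, 4271 and 3879 FPKM in watered WT and 1675, 1596 and 1906 in drought WT. In OE the sums were 4689, 3738 and 3871 when watered and 978, 622 and 1101 under drought. Every drought library lay below every watered one, and every drought OE library below every drought WT one. The 100 other members summed to 5729, 5244 and 5969 FPKM in watered WT and 6236, 7686 and 4978 in drought WT, and these groups overlapped. In OE they summed to 6074, 6334 and 6077 when watered and 5497, 5791 and 5565 under drought. There every drought library lay below every watered one, by a smaller margin than for the chloroplastic members. As a share of all FPKM, however, the other members in OE did not fall. They took 0.914% ± 0.0382 (SD) when watered and 0.93% ± 0.00751 under drought. The chloroplastic share in OE was 0.607% when watered and 0.15% under drought. The mesophyll markers moved with the chloroplastic members: 24 of 26 tested markers fell in WT and 25 of 26 in OE, with median log2 changes of -3.26 and -5.37. Their part in the result was not tested. Most phloem and xylem markers were lower too. In WT 13 of 18 tested phloem markers fell and 1 rose, and 15 of 16 tested xylem markers fell. Of 25 tested epidermis markers 8 fell and 4 rose there. In OE 15 phloem markers fell and 3 rose, 12 xylem markers fell, and 14 epidermis markers fell and 6 rose. Guard cell markers differed from these. Of the 2 tested, 1 rose and 1 fell in WT, while in OE 1 rose and the other was not called. The 4 guard cell markers summed to 5.83 to 8.83 FPKM in watered OE and 17.6 to 23.6 in drought OE. In WT their watered and drought sums overlapped.

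**Figure D2:**
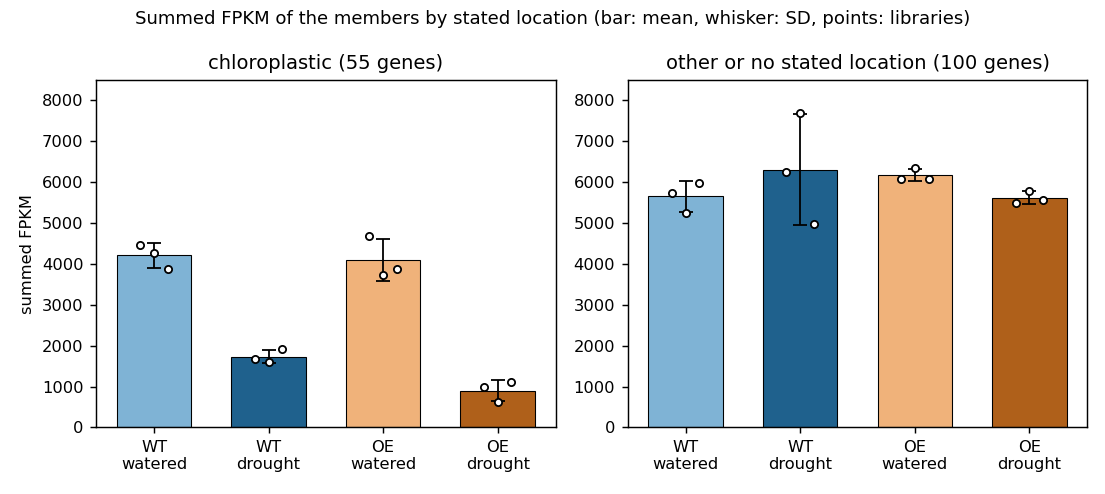
Summed FPKM of the 55 chloroplastic members (left) and of the 100 members with another or no stated location (right) in each of the 4 groups. Bars are means of 3 libraries, whiskers are SD and points are libraries. Watered libraries have chloroplastic sums of 3738 to 4689, those under drought 622 to 1906, with drought OE lowest. The other sums overlap between watered and drought WT. In OE they are 6074 to 6334 when watered and 5497 to 5791 under drought, which is 0.914% and 0.93% of all FPKM on average.

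In the superoxide dismutase class, falls outnumbered rises. Of the 13 members, 7 fell and 1 rose in WT, and 10 fell and 1 rose in OE. Falls were 53.8% of the class in WT and 76.9% in OE, against 21.6% and 34.9% of all genes tested. The chloroplastic members contributed 5 of the falls in each genotype, and 2 of those 5 were the copper chaperones, which are not dismutases. Superoxide dismutase [Cu-Zn] 1 (Potri.005G044400, chromosome 5, 3271681 to 3275302) measured 57.2, 58.3 and 64.7 FPKM in watered WT, 21.3, 17.5 and 16.1 in drought WT, 57.2, 40.5 and 68.3 in watered OE and 8.66, 4.21 and 10.9 in drought OE. All drought values lay under all watered values. The log2 changes were -1.67 ± 0.28 (SE) in WT and -2.71 ± 0.28 in OE, with adjusted p of 0.000428 and 6.78e-06. The iron enzyme of the plastid, Superoxide dismutase [Fe] 2 (Potri.015G110400), averaged 21.6 ± 9.10 (SD, n = 3) FPKM in watered WT, 6.11 ± 1.199 in drought WT, 12.8 ± 5.05 in watered OE and 4.15 ± 1.22 in drought OE, and fell by 1.61 and 1.39 on the log2 scale; its watered libraries spread widely, from 9.30 to 32.0.

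The mitochondrial manganese enzymes did not move alike. Potri.013G092600, the most abundant superoxide dismutase, measured 77.6, 70.4 and 75.1 FPKM in watered WT, 108, 94.9 and 75.7 in drought WT, 88.5, 99.8 and 87.3 in watered OE and 55.4, 50.1 and 60.7 in drought OE. The WT groups overlapped, since drought library 6 lay below watered library 1, and the drought OE libraries were the lowest of all. The response in WT was 0.30 ± 0.16 with an adjusted p of 0.128, and it fell in OE, by 0.72 ± 0.16 on the log2 scale (adjusted p = 0.00202). Its paralogue Potri.019G057300, with the same UniProt entry and chosen after its values were seen, rose by 0.86 ± 0.16 in WT and 0.49 ± 0.16 in OE, from 56.65 and 60.7 FPKM to 105 and 85.2. Its rise in OE was lost without watered OE library 2.

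The catalases differed among themselves. Catalase-2 (Potri.005G100400, chromosome 5, 7669817 to 7673447) was 365, 348 and 310 FPKM in watered WT and 28.3, 26.4 and 79.8 in drought WT. In OE it was 308, 233 and 193 when watered and 16.2, 4.93 and 19.2 under drought. Drought and watered groups did not overlap in either genotype, and drought OE lay wholly below drought WT. WT changed by -3.09 ± 0.47 on the log2 scale and OE by -4.25 ± 0.47, with adjusted p of 0.000229 and 1.21e-05. The most abundant catalase, Catalase isozyme 1 (Potri.002G009800), averaged 575 ± 29.2 FPKM in watered WT and 477 ± 141 in drought WT, a change of -0.31 ± 0.31 with overlapping groups. In OE it fell from 520 ± 94.0 to 295 ± 114 (log2 change -0.89 ± 0.31, adjusted p = 0.0257), a call lost without watered OE library 1 or 2 or without drought OE library 5 (adjusted p of 0.0882, 0.0612 and 0.094). A lower gene described as Catalase isozyme 1, Potri.005G251600, rose in WT from 10.8 ± 2.999 to 30.3 ± 15.8 FPKM (log2 change 1.32 ± 0.32, adjusted p = 0.00427) and was 16.3 ± 3.45 and 23.9 ± 1.90 in OE (adjusted p = 0.152).

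Most ascorbate peroxidases fell under drought, 55.6% of those tested in WT and 77.8% in OE, against 21.6% and 34.9% of all genes tested. In WT 5 of 9 tested genes fell and 1 rose, and in OE 7 fell and 0 rose (limma; 8 had an unadjusted p under 0.05 in either direction, and voom on recovered fragments gave 7 and 0). The gene that rose was the cytosolic L-ascorbate peroxidase 2 (Potri.016G084800, chromosome 16, 6654626 to 6658008), the most abundant of the class. It measured 215, 195 and 229 FPKM in watered WT and 352, 308 and 272 in drought WT, but 247, 291 and 226 in watered OE and 170, 163 and 189 in drought OE. Drought libraries were all above watered ones in WT and all below them in OE. The response was 0.54 ± 0.17 with an adjusted p of 0.0193 in WT and -0.54 ± 0.17 with an adjusted p of 0.0168 in OE, and the rise in WT had an adjusted p of 0.212 with scaled libraries. It was lost without watered WT library 2 or drought WT library 4, and the fall in OE without watered OE library 2 or drought OE library 4.

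The thylakoid-type L-ascorbate peroxidase T, which the annotation places in the chloroplast (Potri.005G179200), fell from 33.0 ± 3.09 to 8.78 ± 1.81 FPKM in WT and from 32.6 ± 6.27 to 4.40 ± 1.40 in OE. Its log2 changes were -1.81 ± 0.22 and -2.66 ± 0.22. Putative L-ascorbate peroxidase 6 (Potri.006G254500) fell by 1.75 and 2.39. The peroxisomal L-ascorbate peroxidase 3 (Potri.009G134100) was 116 ± 14.8 and 82.7 ± 3.25 FPKM in WT (log2 change -0.47 ± 0.21, adjusted p = 0.0788, but 0.00567 with scaled libraries) and fell from 133 ± 17.8 to 37.5 ± 10.8 in OE (-1.83 ± 0.21, adjusted p = 1.67e-05).

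Among the reductases that restore ascorbate and glutathione, all 3 monodehydroascorbate reductases were called in both genotypes, 2 higher and 1 lower. Monodehydroascorbate reductase Potri.006G114800 (chromosome 6, 8967085 to 8971367) measured 212, 217 and 217 FPKM in watered WT, 563, 613 and 436 in drought WT, 231, 233 and 216 in watered OE and 487, 454 and 488 in drought OE. Watered and drought groups were far apart and the genotypes overlapped under drought. It rose by 1.3 ± 0.17 in WT and 1.07 ± 0.17 in OE (adjusted p of 7.72e-05 and 0.000195). The peroxisomal form, Monodehydroascorbate reductase 4 (Potri.001G346200), went the other way, from 108 ± 8.70 to 32.5 ± 2.11 FPKM in WT and from 98.3 ± 9.40 to 18.4 ± 6.09 in OE (log2 changes -1.70 ± 0.22 and -2.41 ± 0.22). The mitochondrial form (Potri.001G099600, chosen after its values were seen) rose by 1.19 ± 0.17 and 0.67 ± 0.17.

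Cytosolic glutathione reductase (Potri.003G178200, chromosome 3, 18601425 to 18612701), which uses NADPH to reduce oxidised glutathione, measured 46.1, 42.8 and 46.5 FPKM in watered WT, 113, 118 and 113 in drought WT, 38.0, 45.1 and 37.5 in watered OE and 180, 179 and 180 in drought OE. The drought libraries exceeded all watered ones, and each drought OE library exceeded each drought WT one. The log2 rise was 1.32 ± 0.13 in WT and 2.14 ± 0.13 in OE, with adjusted p of 1.06e-05 and 1.76e-07. A copy on chromosome 1 with the same description, Potri.001G050000, rose from 14.5 ± 0.619 to 25.2 ± 1.44 FPKM in WT (log2 change 0.76 ± 0.15) and was 15.03 ± 1.99 and 19.7 ± 3.32 in OE (adjusted p = 0.0571, but 0.00383 with scaled libraries). The chloroplastic gene of the class, Potri.015G037800, chosen after its values were seen, was called in none of the 5 comparisons (adjusted p of 0.136 to 0.909), but lower in WT with scaled libraries (adjusted p = 0.0371).

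**Figure D3:**
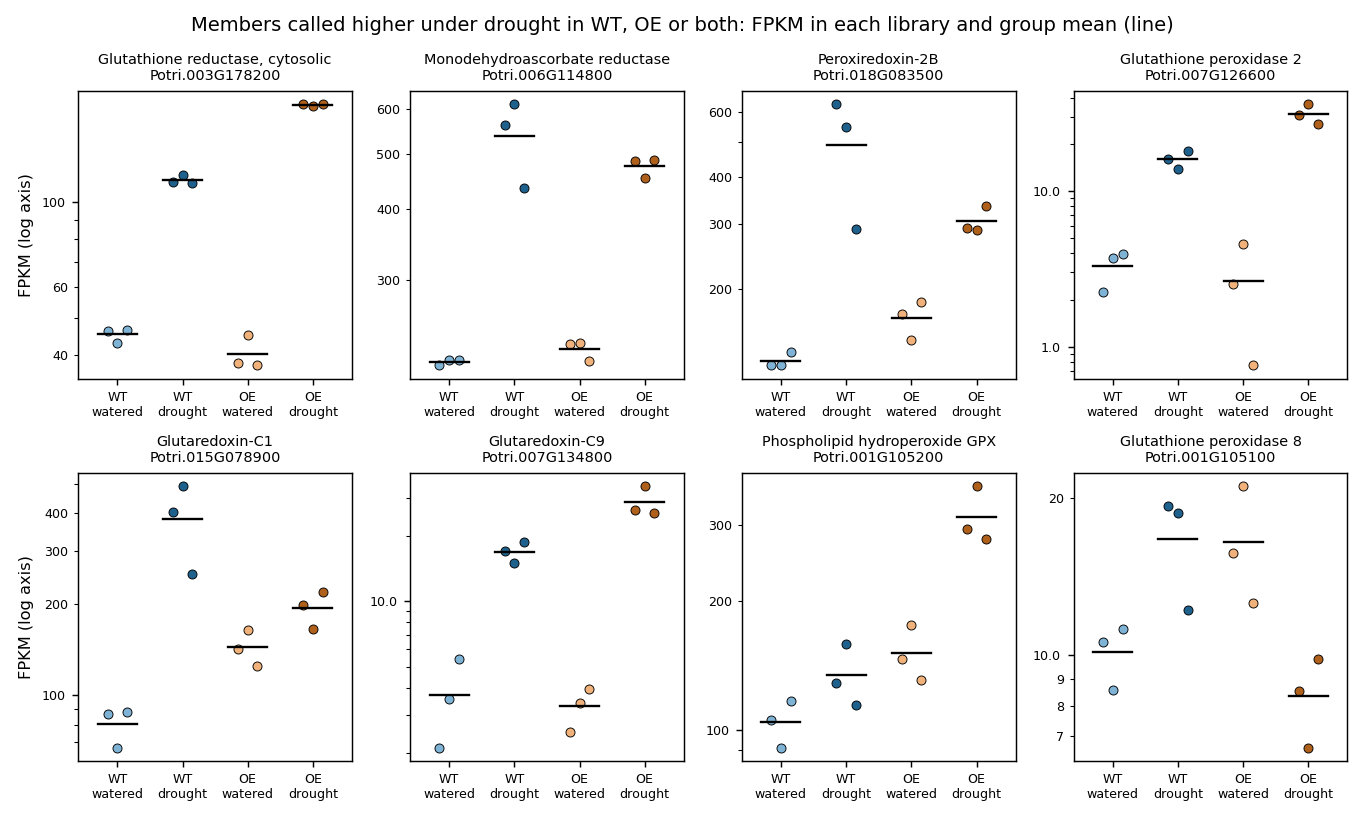
FPKM of 8 members in each library on log axes, with the group mean as a line, for WT (blue) and OE (orange), pale when watered and dark under drought. Cytosolic glutathione reductase steps from 37.5 to 46.5 in watered leaves to about 113 in drought WT and 180 in drought OE. Glutathione peroxidase 8 is higher in drought than watered WT and lower in drought than watered OE, while the neighbouring phospholipid hydroperoxide glutathione peroxidase (GPX) is highest in drought OE.

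Of 7 tested glutathione peroxidases 4 rose and 0 fell in WT (limma; 4 of the 7 had an unadjusted p under 0.05, and voom gave 4 and 0), and 2 rose and 3 fell in OE. With scaled libraries WT had 2 up and 1 down. On the deposited scale the rises were 57.1% in WT and 28.6% in OE, against 33.9% and 27.7% of all genes tested. The falls in OE were 42.9%, against 34.9%. Probable glutathione peroxidase 2 (Potri.007G126600, chromosome 7, 14280849 to 14283953) measured 2.23, 3.74 and 3.97 FPKM in watered WT, 16.1, 13.9 and 18.2 in drought WT, 2.52, 4.61 and 0.757 in watered OE and 31.1, 36.4 and 26.9 in drought OE. The 4 groups fell into low watered and high drought values, with drought OE above drought WT. It rose by 2.00 ± 0.34 in WT and 3.31 ± 0.34 in OE. The mitochondrial glutathione peroxidase 6 (Potri.003G126100), the most abundant of the class, measured 206, 142 and 168 FPKM in watered WT, 368, 445 and 204 in drought WT, 280, 300 and 270 in watered OE and 189, 181 and 189 in drought OE. Its WT groups overlapped by 1 library; it rose by 0.92 ± 0.26 in WT (adjusted p = 0.0101, but 0.0631 with scaled libraries) and changed by -0.60 ± 0.26 in OE (adjusted p = 0.0597). The chloroplastic glutathione peroxidase 1 (Potri.006G265400) was 170 ± 10.1 and 126 ± 17.6 FPKM in WT (adjusted p = 0.145, but 0.0145 with scaled libraries) and fell from 170 ± 21.1 to 64.1 ± 22.2 in OE (-1.45 ± 0.25, adjusted p = 0.000305). Probable glutathione peroxidase 3 (Potri.017G033100) rose in WT from 0.756 ± 0.408 to 2.56 ± 0.921 FPKM (adjusted p = 0.0161), a call lost without watered WT library 1 or drought WT library 6.

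A pair of glutathione peroxidase genes that lie side by side on chromosome 1, between 8376683 and 8386411, responded in opposite ways in OE. Potri.001G105200 measured 105, 91.0 and 117 FPKM in watered WT, 129, 159 and 115 in drought WT, 147, 176 and 131 in watered OE and 294, 370 and 279 in drought OE. Its drought OE libraries exceeded all 9 others. It rose by 1.05 ± 0.19 in OE (adjusted p = 0.000562) and changed by 0.35 ± 0.19 in WT (adjusted p = 0.142). Its neighbour Potri.001G105100, glutathione peroxidase 8, rose in WT from 10.1 ± 1.38 to 16.7 ± 3.90 FPKM (0.65 ± 0.23, adjusted p = 0.0281) and fell in OE from 16.4 ± 4.28 to 8.33 ± 1.59 (-0.89 ± 0.23, adjusted p = 0.00488). The rise in WT had an adjusted p of 0.124 with scaled libraries and was also lost without watered WT library 1 or 2 or drought WT library 4, among others. Both genes lie on the same strand.

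Most tested peroxiredoxins of the chloroplast fell in both genotypes. Of the 10 tested members, 5 fell and 1 rose in WT, and 8 fell and 1 rose in OE; the 5 tested chloroplastic ones gave 4 and 5 of the falls. Peroxiredoxin Q (Potri.006G137500, chromosome 6, 11414865 to 11416889), a thiol peroxidase of the plastid, measured 366, 417 and 289 FPKM in watered WT and 8.99, 8.33 and 21.4 in drought WT. In OE it was 352, 206 and 309 when watered and 3.43, 1.00 and 4.11 under drought. All 4 groups were separate except for the watered genotypes, which overlapped. Its levels changed by -4.79 ± 0.40 in WT and -6.31 ± 0.40 in OE on the log2 scale, with adjusted p of 2.73e-06 and 1.97e-07. A 2-Cys peroxiredoxin BAS1-like gene (Potri.016G072100) fell from 362 ± 25.2 to 77.5 ± 15.6 FPKM in WT and from 353 ± 80.8 to 46.2 ± 12.9 in OE.

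Peroxiredoxin-2E (Potri.013G102100), also chloroplastic, measured 238, 258 and 208 FPKM in watered WT, 178, 165 and 202 in drought WT, 343, 216 and 276 in watered OE and 73.6, 44.4 and 92.8 in drought OE. The 3 drought OE libraries lay far below the other 9. Its log2 change was -0.37 ± 0.26 in WT (adjusted p = 0.246, but 0.045 with scaled libraries) and -2.01 ± 0.26 in OE, where the adjusted p was 3.95e-05. The only peroxiredoxin that rose was Peroxiredoxin-2B (Potri.018G083500), which has no stated location here and is a cytosolic type in Arabidopsis. It went from 125, 124 and 135 FPKM to 632, 548 and 290 in WT and from 172, 146 and 184 to 291, 289 and 335 in OE, so no drought library reached down to a watered one of its genotype. The rises were 1.85 ± 0.26 and 0.87 ± 0.26 (adjusted p of 0.000107 and 0.0108). The 1-Cys peroxiredoxin (Potri.008G099900) varied most between libraries, with 36.2, 113 and 56.4 FPKM in watered OE and 5.36, 1.21 and 6.42 in drought OE, and fell there by 3.73 ± 0.71.

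The largest falls of the thioredoxins lay in the light-dependent chain. Its entry point, ferredoxin-thioredoxin reductase, has a catalytic and a variable chain. The description of the variable chain names no location, so its genes were counted among the others, not the chloroplastic members. The catalytic chain (Potri.001G350900, chromosome 1, 35776086 to 35780718) measured 157, 140 and 145 FPKM in watered WT, 39.2, 32.5 and 31.1 in drought WT, 197, 143 and 161 in watered OE and 14.9, 6.83 and 14.6 in drought OE. The main variable-chain gene (Potri.010G255500) measured 367, 291 and 300, then 83.8, 68.9 and 101 FPKM in WT, and 406, 304 and 337, then 33.2, 9.28 and 37.3 in OE. For both chains the watered genotypes overlapped, the drought values lay lower, and drought OE lay below drought WT. The log2 changes were -2.08 ± 0.25 and -1.91 ± 0.40 in WT and -3.74 ± 0.25 and -3.87 ± 0.40 in OE.

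The chloroplast M-type thioredoxins, which activate enzymes of carbon metabolism, included the steepest changes. Potri.005G186800 (chromosome 5, 20421140 to 20422517) measured 437, 457 and 411 FPKM in watered WT, 14.9, 19.1 and 32.8 in drought WT, 373, 273 and 365 in watered OE and 4.01, 0.807 and 4.48 in drought OE. Potri.002G073000 (chromosome 2, 5066351 to 5067619) measured 432, 393 and 353, then 13.5, 30.4 and 39.0 FPKM in WT, and 398, 314 and 347, then 4.79, 1.00 and 7.18 in OE. In both genes every drought OE library lay below every drought WT library. The falls were 4.30 ± 0.38 and 3.90 ± 0.46 in WT and 6.51 ± 0.38 and 6.27 ± 0.46 in OE on the log2 scale. They share a UniProt description, and no source states how fragments were divided between similar genes, so their values may not be independent. Of 10 tested M-type genes, these included, 2 rose and 2 fell in WT (0 and 3 with scaled libraries), and 1 rose and 7 fell in OE.

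Thioredoxin F1 (Potri.019G054800), another activator of carbon fixation, measured 893, 697 and 697 FPKM in watered WT, 261, 316 and 320 in drought WT, 950, 839 and 609 in watered OE and 117, 49.4 and 147 in drought OE, with the drought groups apart. It fell by 1.34 ± 0.34 in WT and 3.04 ± 0.34 in OE. Thioredoxin X (Potri.007G074000) fell from 123 ± 9.88 to 29.3 ± 5.57 FPKM in WT and from 126 ± 8.64 to 12.1 ± 4.90 in OE. Thioredoxin-like 2 (Potri.006G150700) fell from 78.4 ± 2.56 to 28.9 ± 5.27 and from 72.0 ± 7.13 to 8.49 ± 5.04. Over the 50 tested thioredoxins 10 rose and 12 fell in WT, and 4 rose and 28 fell in OE; with scaled libraries the WT split was 5 and 20. The 27 chloroplastic ones gave 5 rises and 9 falls in WT and 3 rises and 19 falls in OE.

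**Figure D4:**
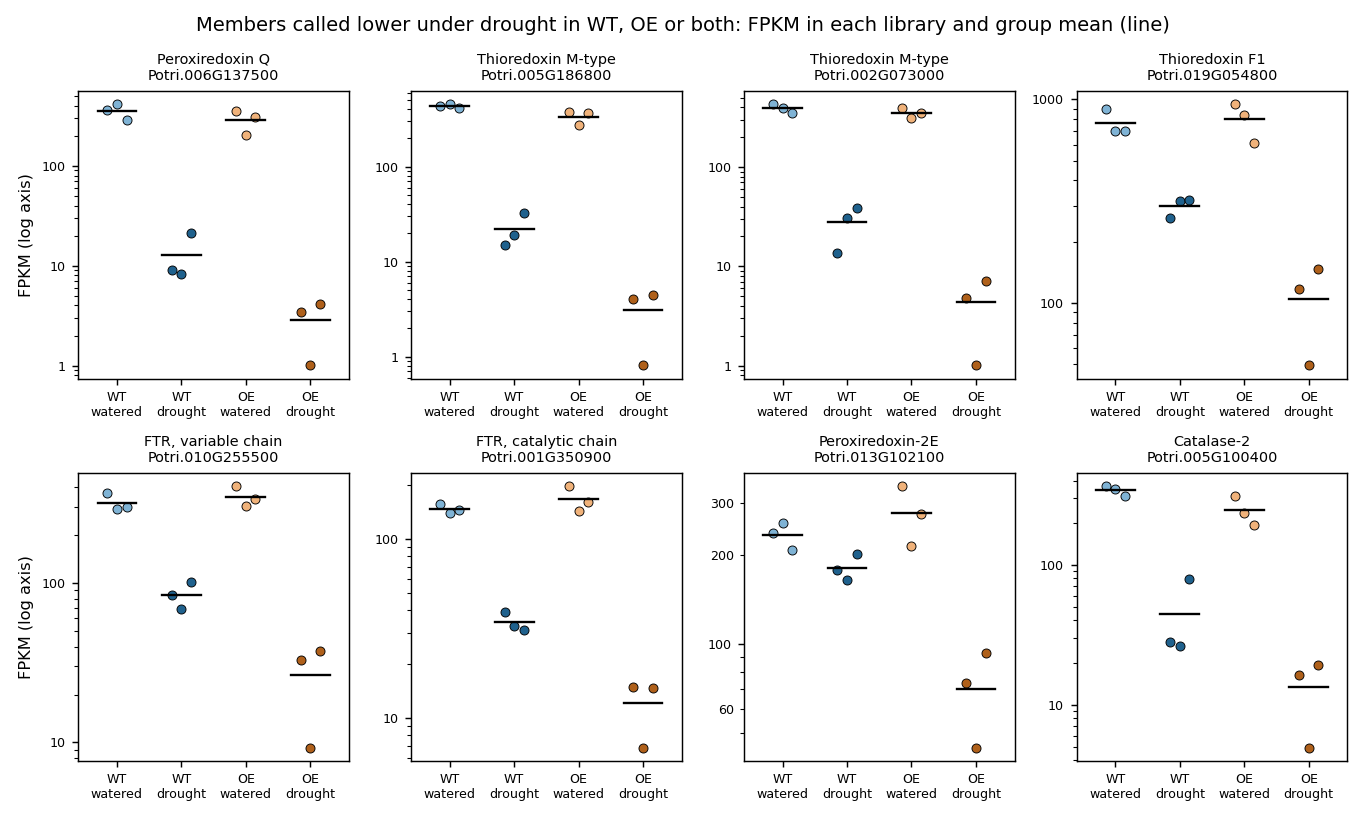
FPKM of 8 members in each library on log axes, with the group mean as a line, for WT (blue) and OE (orange), pale when watered and dark under drought. FTR is ferredoxin-thioredoxin reductase. In each panel the 3 drought OE libraries lie below all 9 others, and the lowest point is drought OE library 5, at 0.807 to 49.4 FPKM.

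Thioredoxins and reductases that do not depend on ferredoxin behaved differently from one another. Thioredoxin H-type 2 (Potri.005G232700), the most abundant member of all at 889, 880 and 1227 FPKM in watered WT, was 509, 605 and 403 in drought WT, 953, 1244 and 1100 in watered OE and 815, 854 and 779 in drought OE. The WT groups were separate, and the drought OE libraries lay between the watered ones and drought WT. It fell by 0.98 ± 0.22 in WT (adjusted p = 0.00312) and changed by -0.42 ± 0.22 in OE (adjusted p = 0.12). TPR repeat-containing thioredoxin TTL1 (Potri.001G392600) fell from 11.6 ± 1.82 to 2.37 ± 0.664 FPKM in WT. The 3 tested genes with its UniProt entry differed, since 1 rose and 2 fell in WT, and 0 rose and 2 fell in OE. Of 7 tested H-type genes 2 rose and 1 fell in WT, and 1 rose and 1 fell in OE; neither WT rise was called with scaled libraries. Of all genes tested, 33.9% rose and 21.6% fell in WT, and 27.7% rose and 34.9% fell in OE. Thioredoxin reductase 2 (Potri.001G456800, chosen after its values were seen), an NADPH-dependent enzyme, rose by 0.69 ± 0.15 in WT (a call lost with scaled libraries, adjusted p = 0.0897) and 0.70 ± 0.15 in OE, whereas the NADPH-dependent thioredoxin reductase 3 (Potri.006G049100, likewise chosen) fell by 1.33 ± 0.21 and 1.05 ± 0.21.

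Of the 28 tested glutaredoxins, 13 rose and 3 fell in WT, which is 46.4% and 10.7%, against 33.9% and 21.6% of all genes tested. In OE 7 rose and 11 fell, which is 25.0% and 39.3%, near the 27.7% and 34.9% of all genes. With scaled libraries the WT split was 7 and 4 and the OE split 9 and 10. Glutaredoxin-C1 Potri.015G078900 (chromosome 15, 10377769 to 10379042), the most abundant of the class, measured 86.5, 67.1 and 88.3 FPKM in watered WT, 405, 493 and 252 in drought WT, 143, 164 and 125 in watered OE and 200, 166 and 220 in drought OE. Drought WT lay above every other group, and drought OE just above watered OE. It rose by 2.19 ± 0.24 in WT (adjusted p = 2.34e-05), and its change in OE was 0.44 ± 0.24 (adjusted p = 0.14, but 0.048 with scaled libraries). The other C1 gene, Potri.012G082800, was 0.740, 1.10 and 0.269 FPKM in watered WT, 19.98, 25.9 and 11.7 in drought WT, 0.162, 0.354 and 1.15 in watered OE and 8.23, 6.88 and 8.08 in drought OE, on 2 to 348 fragments per library. It rose by 3.53 ± 0.31 and 2.54 ± 0.31.

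The 3 tested C9 genes rose in both genotypes and under both scalings. In Arabidopsis glutaredoxins of this type bind TGA transcription factors. Potri.007G134800 averaged 3.70 ± 1.68 and 17 ± 1.895 FPKM in WT and 3.28 ± 0.727 and 28.8 ± 4.62 in OE, with log2 rises of 2.00 ± 0.25 and 2.80 ± 0.25. Potri.011G058800 rose by 2.13 ± 0.24 and 2.63 ± 0.24, and Potri.017G017300, chosen after its values were seen, by 1.24 ± 0.28 and 2.11 ± 0.28. Among the largest falls was monothiol glutaredoxin-S9 (Potri.002G208400), at 85.8 ± 22.9 and 21.5 ± 14.7 FPKM in WT and 121 ± 48.3 and 11.1 ± 1.35 in OE. Glutaredoxin-C6 Potri.006G226900 fell from 29.6 ± 1.17 to 10.2 ± 7.96 and from 34.6 ± 7.76 to 2.14 ± 0.603. The monothiol S14 to S17 types, known to bind iron-sulfur clusters, gave 3 rises and 0 falls among 5 tested in WT (0 rises and 1 fall with scaled libraries) and 0 rises and 2 falls in OE.

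Some genes with the same UniProt entry were called in opposite directions. Among 34 entries with at least 2 tested genes, which hold 77 genes, 2 had genes called in both directions in WT and 4 in OE, and 11 and 15 had 2 or more genes called in a single direction and none in the other. The 2 Glutaredoxin-C6 genes parted in both genotypes: beside the falls of Potri.006G226900, Potri.018G062200 was listed at 0 in all 3 watered WT libraries and rose to 0.507, 3.29 and 0.736 FPKM in drought WT, and to 2.43, 3.56 and 3.71 in drought OE from 0, 0.602 and 0 (at most 15 fragments). Thioredoxin-like 1-1 Potri.013G061200 rose in WT from 37.01 ± 5.48 to 130 ± 9.62 FPKM (1.80 ± 0.16) and in OE by 0.48 ± 0.16, while Potri.019G031900 was 116 ± 17.3 and 93.9 ± 41.4 (adjusted p = 0.275) and fell by 1.98 ± 0.28 in OE. These genes were chosen after their values were seen. Clusters of neighbouring glutaredoxins also varied: of the 3 on chromosome 8 between 17156915 and 17292391, monothiol glutaredoxin-S2 Potri.008G214600 fell in OE by 1.85 ± 0.30, and monothiol glutaredoxin-S10 Potri.008G214500, chosen after its values were seen, rose there by 1.22 ± 0.33.

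Between watered OE and WT leaves, limma called 0 of 132 members higher and 0 lower, against 0.0985% and 0.0394% of all genes tested and 0.138% in either direction; 17 had an unadjusted p under 0.05, voom on recovered fragments also called 0, and leaving out watered WT library 3 gave 2 higher. The median log2 difference was 0.07, and single values ran from -1.23 to 1.65. A miss of the threshold does not show equal levels.

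Under drought, 59 of 132 tested members were lower in OE than in WT, 4 were higher and 69 were not called, against 20.2% and 9.19% of all genes tested, and 29.4% in either direction. The median log2 difference was -0.64. With scaled libraries 30 were lower and 9 higher and the median was -0.37, against 2531 lower and 3835 higher of all 25373 genes tested. The lower calls numbered 32 without drought WT library 4, 34 without drought OE library 5 and 25 when the fit held only the drought groups. This comparison shares the drought libraries with the comparisons within WT and OE, so it is not independent of them. Beside it, 23 of 26 tested mesophyll markers were lower in drought OE than in drought WT, with a median log2 difference of -1.99. Of the epidermis markers 10 were lower and 2 higher, and both tested guard cell markers were higher. Their part was not tested.

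The chloroplastic members gave 23 lower and 0 higher of 47, and the others 36 lower and 4 higher of 85; with scaled libraries these were 12 and 1, and 18 and 8. For the 0, voom also gave 0, and 29 of the 47 had an unadjusted p under 0.05. The largest differences were those of the M-type thioredoxins Potri.005G186800 (-2.59 ± 0.38, adjusted p = 0.00111) and Potri.002G073000 (-2.53 ± 0.46, adjusted p = 0.00328). Monothiol glutaredoxin-S2 Potri.010G021800 followed with -2 ± 0.69 (adjusted p = 0.0464, but 0.0757 with scaled libraries), then Peroxiredoxin Q Potri.006G137500 with -1.84 ± 0.40. After these came Thioredoxin-like 2 and the variable chain of ferredoxin-thioredoxin reductase Potri.010G255500 with -1.83 ± 0.36 and -1.83 ± 0.40, and Catalase-2 with -1.66 ± 0.47 (adjusted p = 0.0223, lost without drought WT library 6 or drought OE library 5, and with only the drought groups in the fit). Among members with no stated location, 2 Cu-Zn superoxide dismutases were lower, Potri.019G035800 at 15.7 ± 4.46 FPKM in drought WT against 5.596 ± 1.71 in drought OE and Potri.013G056900 at 7.85 ± 2.71 against 2.62 ± 1.24.

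The 4 members higher in drought OE were the phospholipid hydroperoxide glutathione peroxidase Potri.001G105200 (1.22 ± 0.19, adjusted p = 0.00154), cytosolic glutathione reductase Potri.003G178200 (0.65 ± 0.13, adjusted p = 0.00552), Glutaredoxin-C9 Potri.007G134800 (0.72 ± 0.25, adjusted p = 0.0455) and Thioredoxin H-type 2 Potri.005G232700 (0.71 ± 0.22, adjusted p = 0.0345). The peroxidase and the reductase stayed called in every alternative fit, whereas the C9 and H-type genes were lost without drought WT library 4 and without drought OE library 5, among other settings. Without either of those libraries, or without drought OE library 4 or 6, 2 members were called higher.

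The drought responses themselves were compared by their difference between genotypes. Of 132 members, 34 had a lower response in OE and 1 a higher one, against 10.2% and 4.54% of all genes tested and 14.8% in either direction. The median difference was -0.72, and that of all genes was -0.278, or 0.037 with scaled libraries, where 12 members were lower and 4 higher. On that scale 1029 of all 25373 genes tested were lower and 2005 higher. The lower calls numbered 13 to 22 without watered WT library 1 or 2, drought WT library 4 or 5, watered OE library 1 or 2, or drought OE library 4. The lower calls numbered 51 without drought WT library 6. The higher calls numbered 2 or 3 without drought WT library 5 or 6 or watered OE library 2. The 1 higher call, that of cytosolic glutathione reductase, was lost with the replicate number as a block. Of the 35, 9 were called in every alternative fit.

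Those 9 were the cytosolic L-ascorbate peroxidase 2 gene Potri.006G132200 (-1.47 ± 0.27, adjusted p = 0.00738), the catalytic chain of ferredoxin-thioredoxin reductase (-1.66 ± 0.35), glutathione peroxidase 8 Potri.001G105100 (-1.54 ± 0.32), Peroxiredoxin-2E Potri.013G102100 (-1.64 ± 0.37), peroxisomal L-ascorbate peroxidase 3 Potri.009G134100 (-1.36 ± 0.30), Superoxide dismutase [Cu-Zn] 2 Potri.013G056900 (-1.80 ± 0.42), Thioredoxin-like 1-1 Potri.013G061200 (-1.32 ± 0.22), Glutaredoxin-C1 Potri.015G078900 (-1.76 ± 0.35) and Thioredoxin M4 Potri.001G401500 (-1.35 ± 0.30). The thioredoxins 1-1 and M4 were chosen after their values were seen. Potri.006G132200 measured 65.9, 52.5 and 68.1 FPKM in watered WT, 99.0, 79.6 and 65.5 in drought WT, 77.8, 93.7 and 69.9 in watered OE and 40.3, 32.8 and 37.3 in drought OE. Its WT groups overlapped, while drought OE was below all 9 other libraries. The largest difference was that of monothiol glutaredoxin-S2 Potri.010G021800 (-3.65 ± 0.97, adjusted p = 0.0307), whose watered WT values of 1.23, 2.53 and 24.3 FPKM spread widely and whose call was lost without watered WT library 1 or 2, drought WT library 4 or 5, watered OE library 1 or 3 or drought OE library 5.

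Across both genotypes, 35 members fell in both, 21 of them chloroplastic, and 18 rose in both, 3 of them chloroplastic. A further 36 fell in OE and were not called in WT, 15 rose in WT and were not called in OE, 2 fell in WT alone, 1 rose in OE alone, and 22 were called in neither. Of all genes tested, 33.9% rose and 21.6% fell in WT, and 27.7% rose and 34.9% fell in OE. Joint counts over all genes were not made, so those of the members cannot be set against them. The opposite signs, a rise in WT and a fall in OE, were called on the deposited scale for 3 members: the cytosolic L-ascorbate peroxidase 2 gene Potri.016G084800, glutathione peroxidase 8 Potri.001G105100 and Thioredoxin M4 Potri.001G401500. With scaled libraries none of these 3 rises in WT was called. A call in one genotype and none in the other does not show a difference, which only the comparison of responses above tests.

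**Figure D5:**
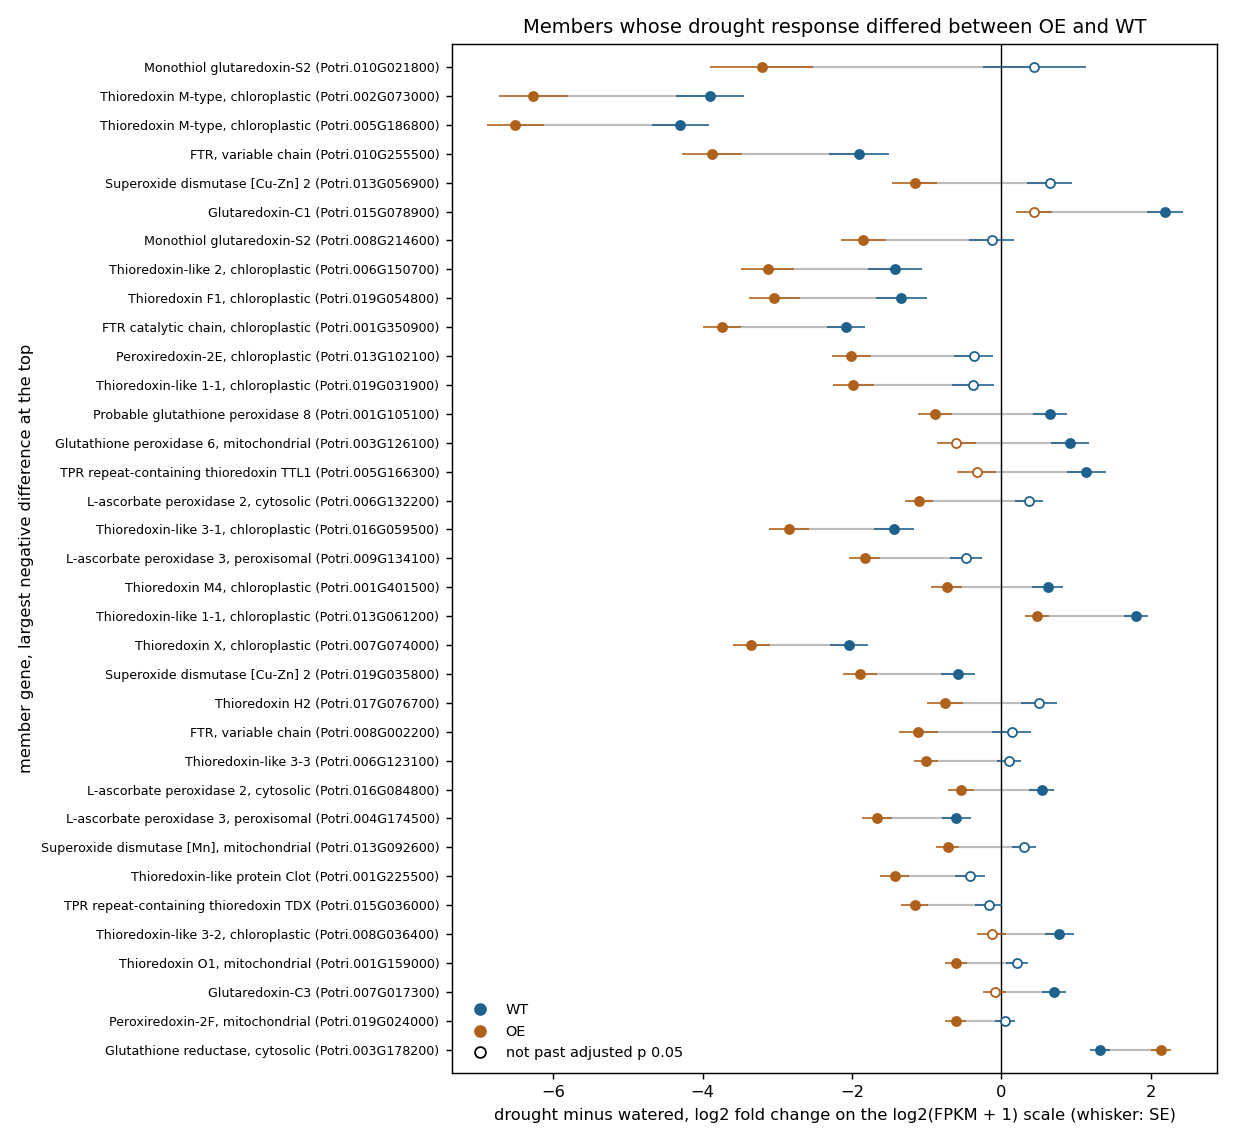
Drought response (log2 fold change on the log2(FPKM + 1) scale, whiskers SE) in WT (blue) and OE (orange) of the 35 members whose response differed between genotypes by the called difference, with FTR for ferredoxin-thioredoxin reductase and open points for responses not past an adjusted p of 0.05. The order follows the difference, from -3.65 at the top to 0.82 for cytosolic glutathione reductase, the only member called with a higher response in OE. That call was lost with the replicate number as a block. With scaled libraries 12 were lower and 4 higher.

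Other genes of these pathways moved in both directions. Of 75 tested genes in a list of 87 producers and partners, 27 rose and 23 fell in WT and 24 rose and 29 fell in OE. Calls in both directions were also common over all genes tested. There 33.9% rose and 21.6% fell in WT, and 27.7% rose and 34.9% fell in OE. All 6 tested alternative oxidase genes, which let mitochondria pass electrons directly to oxygen, rose in WT and 5 in OE, with Ubiquinol oxidase 1 Potri.003G103900 at 9.36 and 228 FPKM in WT and 6.92 and 828 in OE. Both glutamate-cysteine ligase genes, which start glutathione synthesis, rose in both genotypes, Potri.001G104500 by 3.58 ± 0.20 and 3.57 ± 0.20. All 3 GDP-mannose 3,5-epimerase genes of ascorbate synthesis fell in both, Potri.005G053000 by 1.90 ± 0.25 and 1.44 ± 0.25. Sulfiredoxin (Potri.012G124500), which repairs overoxidised 2-Cys peroxiredoxins, fell by 1.46 ± 0.17 and 2.22 ± 0.17. Of 11 tested methionine sulfoxide reductases, which draw on thioredoxin, 3 rose and 4 fell in WT and 1 rose and 6 fell in OE. Of 8 tested respiratory burst oxidases, which make superoxide at the cell surface, 5 rose and 2 fell in WT and 3 rose and 1 fell in OE, with homolog D Potri.003G159800 at 0.618 and 13.96 FPKM in WT and 0.360 and 129 in OE.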

How the data were processed

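The authors deposited FPKM per gene for each of 12 libraries, with UniProt descriptions and gene coordinates; no source used here gives the genome build, the counting tool, its use of strand, or how fragments were divided between similar or overlapping genes, so a gene and its antisense partner cannot be told apart. The submitters' processing notes name Bowtie2 2.2.3 and HISAT2 2.1.0. FPKM steps gave whole fragments for 35747 of 35747 genes (100% within 0.02 of a whole number); totals were 9682111 to 12131416. A second deposited table, equal for 16748 of its 16749 genes, was not used.

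The 25373 genes that reached 1 FPKM in 3 or more libraries were fitted as log2(FPKM + 1) with limma 3.58.1 (R 4.3.3; 4 group means, eBayes with trend and robust, 2-sided, Benjamini-Hochberg). The fit was tested on simulated data. Alternatives were a pseudocount of 0.1, no filter, median-of-ratios scaling, voom on recovered fragments (8504 genes higher and 5489 lower in drought WT, against 8596 and 5492), leaving out each library, only the groups compared, the replicate number as a block, a fold minimum and a narrower member list. Errors are SE of a log2 change, or SD of 3 libraries. The members, lists and alternatives were chosen with earlier results of these data known. Named genes are, per class, the most abundant member and, per comparison, up to 2 called members (4 for thioredoxins and glutaredoxins) with the largest change; for the other pathway genes, up to 1 per enzyme.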

Additional observations from a re-analysis of the deposited data

Results flagged for a closer look

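Of the 47 genes named by rule, 22 had a drought response that differed between the genotypes by the test of the difference itself. The naming rule picks genes partly by this difference, so that share is set by the choice; over all tested members it was 35 of 132, against 14.8% of all genes. Values are the log2 response in OE minus that in WT. Among ascorbate peroxidases these were Potri.006G132200 (-1.47), Potri.009G134100 (-1.36) and Potri.016G084800 (-1.08). Among glutathione peroxidases they were Potri.001G105100 (-1.54) and Potri.003G126100 (-1.52). Cytosolic glutathione reductase Potri.003G178200 was the only one above 0 (0.82), and its call was lost with the replicate number as a block. Among superoxide dismutases they were Potri.013G056900 (-1.80), Potri.019G035800 (-1.31) and the mitochondrial Potri.013G092600 (-1.02). Among peroxiredoxins they were Potri.013G102100 (-1.64) and the mitochondrial Potri.019G024000 (-0.66). In the ferredoxin and thioredoxin chain they were Potri.002G073000 (-2.37), Potri.005G186800 (-2.21), Potri.010G255500 (-1.96), Potri.006G150700 (-1.71), Potri.019G054800 (-1.69), Potri.001G350900 (-1.66) and Potri.007G074000 (-1.31). Among glutaredoxins they were Potri.010G021800 (-3.65), Potri.015G078900 (-1.76), Potri.008G214600 (-1.72) and Potri.007G017300 (-0.79). The median of all genes was -0.278 on this scale and 0.037 with scaled libraries.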

How the results depend on the processing

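Of 1500 alternative values for 87 calls of named genes, 1359 kept direction and call, 141 kept direction and lost the call, and 65 calls held under every alternative. Median-of-ratios scaling gave 21 members higher in drought WT, 9 higher and 30 lower in OE against WT under drought, and 4 higher and 12 lower for the difference in response; it gave 3 chloroplastic and 18 other members higher in drought WT, and medians of -0.73 and 0.01. Without a filter on low values the median of the others was 0.07. A log2 fold minimum of 1 gave 20 higher in drought WT (2 chloroplastic, 18 other), 12 higher in drought OE (1 chloroplastic), 1 higher and 25 lower in OE against WT under drought, and 0 higher for the difference. A fit of only the groups compared gave 25 lower. The narrower list gave 3 chloroplastic members higher in drought WT and 1 in drought OE. Leaving out 1 library gave 24 to 41 higher and 30 to 41 lower in drought WT, 16 to 21 and 65 to 76 in drought OE, 0 to 2 higher and 0 lower in watered OE against WT, 2 to 6 and 32 to 66 under drought, and 1 to 3 and 13 to 51 for the difference. For drought WT it gave 3 to 6 and 17 to 25 chloroplastic, 21 to 36 and 12 to 16 other members; for drought OE 1 to 3 and 32 to 35, 15 to 18 and 32 to 42. The chloroplastic median ran from -0.67 to -0.36 in WT and -1.27 to -0.93 in OE, the other from 0.20 to 0.46 and -0.56 to -0.45. The cause was not tested. Whether the replicate numbers pair the samples was not settled. Same-number correlations of deviations were 0.015, -0.497 and -0.017 when watered and -0.054, 0.218 and 0.134 under drought. Different-number correlations ran from -0.351 to 0.433, and with 3 libraries a group such values cannot exclude a shared block. With the replicate block 53 members were lower and 3 higher in OE against WT under drought, and 19 lower and 0 higher for the difference, so cytosolic glutathione reductase, the member called higher there, was not called. With 3 libraries a group, low members rest on few fragments.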
